A study of Homo sapiens with 8 samples.

Results

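The miR-26 family is described here by its 5 mature arms in HCT116, a human colorectal cancer cell line. The arms were chosen by name, hsa-miR-26a-5p, hsa-miR-26b-5p, hsa-miR-26a-1-3p, hsa-miR-26a-2-3p and hsa-miR-26b-3p, out of 2575 miRNA names in the count files, and all 5 are present there. They were selected on earlier results of the comparison between treated and control cells as well as on their names, so every value of that comparison is given below as a description, without a p-value. In 4 libraries the cells had been exposed for 6 hours to enterotoxigenic Bacteroides fragilis (ETBF), a toxin-secreting gut bacterium, at a multiplicity of infection of 500. The other 4 libraries are controls. The treatment protocol gives them bacterial medium with no ETBF in it, while their titles call them untreated. All cells were of the HCT116 line at passages 16 to 19, grown adherently, and no genotype or other agent is named. Nothing in the labels says whether the replicates of a group were separate cultures, so the spread between libraries may be partly technical. The labels give no batch or date.

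miR-26a and miR-26b are small RNAs cut from hairpins inside introns of the genes for small C-terminal domain phosphatases, CTDSPL, CTDSP2 and CTDSP1, whose proteins act on RNA polymerase II and on the retinoblastoma protein. Each hairpin yields a 5p arm, which is loaded into Argonaute as the guide strand, and a 3p arm, the passenger strand, most of which is normally degraded. The guide finds its target mRNAs through its seed, the short stretch near the 5′ end. The family is known as a brake on proliferation that is repressed by MYC, and EZH2 and cyclins are among its reported targets.

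The mature sequences are shown because they set what the counts can separate. All 5 arms and the other names sharing the guide seed were found in the RefSeq miRNA table (GRCh38.p14). Each is written 5′ to 3′ with the seed, bases 2 to 8, in capitals.
hsa-miR-26a-5p: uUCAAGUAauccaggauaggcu
hsa-miR-26b-5p: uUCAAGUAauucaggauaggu
hsa-miR-26a-1-3p: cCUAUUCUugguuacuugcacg
hsa-miR-26a-2-3p: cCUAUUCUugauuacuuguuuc
hsa-miR-26b-3p: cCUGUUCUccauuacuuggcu
hsa-miR-1297: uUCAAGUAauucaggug
hsa-miR-4465: cUCAAGUAgucugaccagggga

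Both guides carry the seed UCAAGUA. Counted from 1 at the 5′ end of miR-26a-5p, they differ over the 21 shared positions by C11U and C21U, and miR-26a-5p is 1 base longer, at 22 bases. A read that ends before base 21 therefore tells them apart at base 11 alone. Both miR-26a passenger arms share the seed CUAUUCU and differ from each other at 5 of 22 bases, G11A, C19U, A20U, C21U and G22C. The miR-26b passenger differs from the miR-26a-1 passenger within the seed, by A4G, and has the seed CUGUUCU.

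The hairpins follow, with both arms in capitals, to show that 1 guide sequence comes from 2 loci while each passenger arm belongs to a single locus.
MIR26A1: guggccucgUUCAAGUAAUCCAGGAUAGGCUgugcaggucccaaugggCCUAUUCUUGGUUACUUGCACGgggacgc
MIR26A2: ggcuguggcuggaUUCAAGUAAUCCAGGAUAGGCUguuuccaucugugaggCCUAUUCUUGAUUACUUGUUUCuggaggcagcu
MIR26B: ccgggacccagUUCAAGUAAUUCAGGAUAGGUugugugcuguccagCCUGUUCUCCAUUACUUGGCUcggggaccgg

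In GRCh38.p14 the miR-26a-1 hairpin lies at chr3:37969404-37969480 on the plus strand, inside an intron of 5 of the 8 annotated CTDSPL transcripts. The miR-26a-2 hairpin lies at chr12:57824609-57824692 on the minus strand, inside an intron of 6 of the 8 CTDSP2 transcripts. The miR-26b hairpin lies at chr2:218402646-218402722 on the plus strand, inside an intron of 11 of the 15 CTDSP1 transcripts. All 3 are on the strand of their host gene and overlap 0 exons of these transcripts (GENCODE release 29). The host mRNAs were not measured. The count files were made on GRCh37.p5 per the submitters' processing notes and hold no coordinates, so these positions serve only to place the hairpins.

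Library totals ran from 2591655 to 4706156 counts in the ETBF libraries and from 5243400 to 6522542 in the controls. ETBF replicate 4 was the shallowest. Levels below are CPM (reads for every 1000000 counted) scaled by TMM, a normalisation that sets the bulk of miRNAs equal between libraries. The colon epithelial markers, the guide arms of miR-192, miR-194, miR-215 and the miR-200 family, summed to 23731 to 26688 CPM with ETBF and 27886 to 29745 CPM in controls. Of the 7 tested guide arms 4 were called lower (57.1%, beside 14.6% of all 480 miRNAs tested) and 0 higher. Of the passenger arms of the same family, hsa-miR-141-5p (log2 fold change 0.51), hsa-miR-200a-5p (0.30) and hsa-miR-200c-5p (0.69) were called higher, and hsa-miR-200b-5p (0.16) was not called. The guide sum thus does not stand for the whole family. Markers of blood summed to 71.2 to 105 CPM with ETBF and 58.4 to 68.0 CPM in controls (1 of 4 tested members called higher, 25%, beside 19.8% of all 480). Markers of stroma and muscle summed to 232 to 285 and 260 to 271 CPM (0 of 3 called, miR-206 at 0 counts). Those of neurons and liver summed to 7537 to 9615 and 7795 to 9793 CPM, nearly all of it miR-9-5p, with 0 of 2 called and miR-124-3p at 0 counts. Entries that resemble other RNA classes summed to 190 to 603 CPM with ETBF and 44.5 to 172 CPM in controls, with 4 of 4 called higher, beside 19.8% of all 480. RNA quality itself was not measured. The part of these differences in the values below was not tested.

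Of the 480 miRNAs with enough counts to test, 165, or 34.4%, were called at an adjusted p under 0.05 (edgeR quasi-likelihood test, Benjamini-Hochberg over all 480), 95 higher with ETBF (19.8%) and 70 lower (14.6%). With upper-quartile scaling 71 were higher and 89 lower, a share of 44.4% higher among the calls against 57.6%. All 5 miR-26 arms entered the test, and 2 of the 5 were called: miR-26a-5p, lower, and miR-26a-2-3p, higher. The same 2 were the arms whose 4 ETBF and 4 control values did not overlap, which held for 33.8% of all tested miRNAs. Since the arms were chosen with this comparison known, nothing is read from these counts. The filter asked for about 2.01 CPM before scaling in at least 4 libraries. Of the 5 arms, miR-26a-1-3p passed it with no library to spare, in 3 ETBF libraries and 1 control, and the other 4 arms reached it in all 8.

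**Figure D1:**
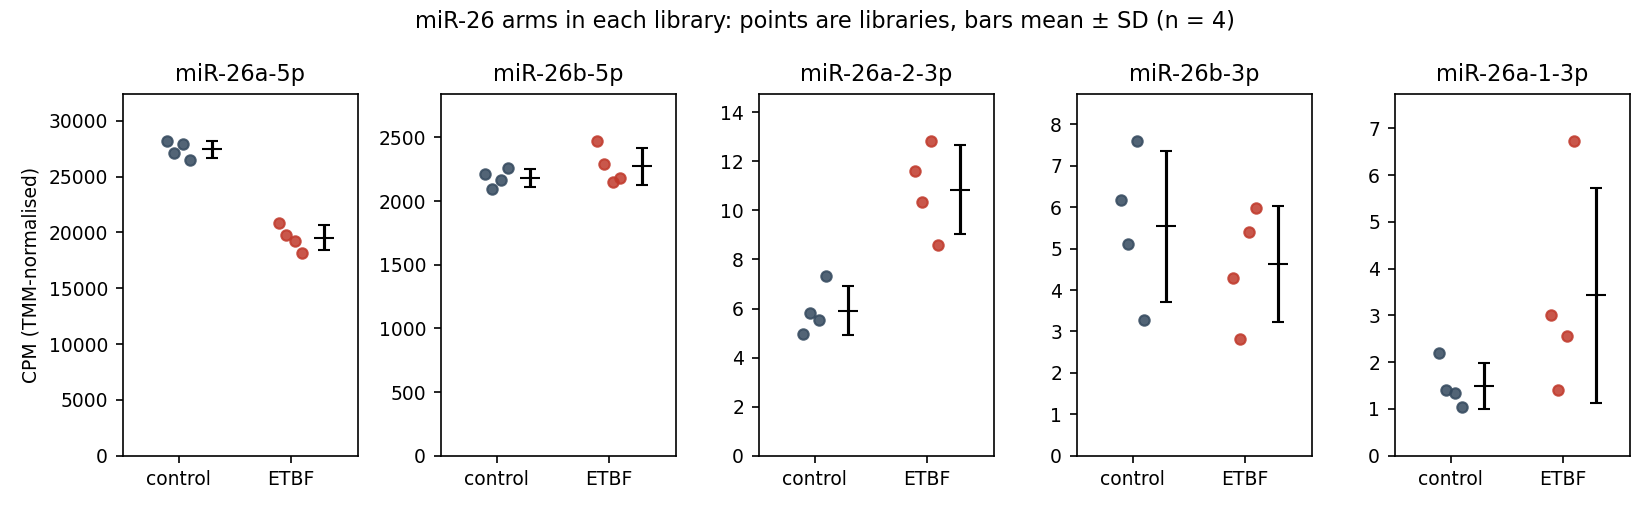
TMM-normalised CPM of each miR-26 arm (vertical axis, from 0, own scale per panel) in the 4 control and 4 ETBF libraries, points being libraries and bars the mean ± SD. The ETBF points lie below all control points for miR-26a-5p, above them for miR-26a-2-3p, and overlap with them for the other 3 arms.

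The guide strand miR-26a-5p was the sixth most abundant miRNA of the 480 and fell with ETBF. It was at 20886, 19745, 19240 and 18181 CPM in ETBF replicates 1 to 4. It was at 28162, 27160, 27963 and 26468 CPM in control replicates 1 to 4. The highest ETBF library lay well below the lowest control, and the spread within a group was small, with a coefficient of variation of 5.76% and 2.84%. The mean went from 27438 ± 779 CPM in controls to 19513 ± 1124 CPM with ETBF (SD, n = 4 each), 1.41-fold lower, a log2 fold change of -0.49 (SE 0.06). In such bulk libraries, fewer cells that make the miRNA and less of it per cell cannot be told apart. Among the 12 miRNAs at 10000 CPM or more, the log2 fold changes ran from -0.62 to 0.37 with a median of -0.09. Of these 12, 5 were called lower, miR-26a-5p among them, and 1 higher, beside 14.6% and 19.8% of all 480.

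Its close relative miR-26b-5p, with the same seed, did not separate the groups. It was at 2475, 2288, 2150 and 2179 CPM in ETBF replicates 1 to 4. It was at 2211, 2097, 2165 and 2260 CPM in control replicates 1 to 4. The groups overlapped, with ETBF replicate 1 the highest of the 8 libraries and control replicate 2 the lowest. The means were 2273 ± 147 and 2183 ± 69.2 CPM (SD, n = 4 each), a log2 fold change of 0.06 (SE 0.07) that was not called. Its sign turned with upper-quartile scaling (-0.024) and after removal of a trend with GC content (-0.051).

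The balance between both guides can be read within each library, free of any scaling between libraries. Each read of miR-26b-5p was matched by 8.44, 8.63, 8.95 and 8.34 reads of miR-26a-5p in ETBF replicates 1 to 4. In control replicates 1 to 4 the numbers were 12.7, 13.0, 12.9 and 11.7. Every ETBF library thus had relatively less miR-26a-5p than every control. The mean was 8.59 ± 0.266 for ETBF libraries against 12.6 ± 0.584 for controls (SD, n = 4 each), and the mean log2 ratio changed by -0.55. Of all reads of the guides, miR-26a-5p made up 89.6% ± 0.286 with ETBF and 92.6% ± 0.331 in controls. miR-26a-5p holds 40.9% G and C and miR-26b-5p 33.3%; over the tested miRNAs with a sequence the log2 fold change fell by 0.07 for each 10 percentage points of GC, and with that trend removed miR-26a-5p was at -0.55 and miR-26b-5p at -0.051.

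**Figure D2:**
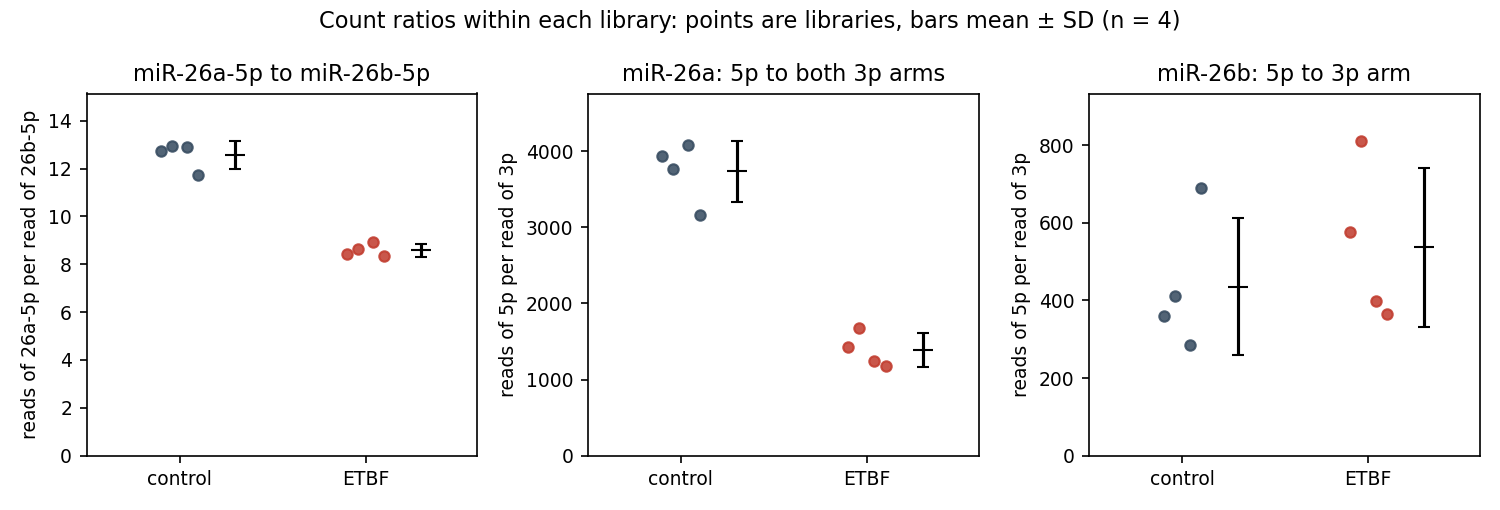
Count ratios within each library (vertical axes, reads per read, from 0) for control and ETBF libraries, points being libraries and bars the mean ± SD. The ratio of miR-26a-5p to miR-26b-5p is 8.34 to 8.95 with ETBF and 11.7 to 13.0 in controls, the miR-26a guide to passenger ratio is also without overlap, and the miR-26b guide to passenger ratio overlaps.

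Counted together, as the supply of 1 seed, the guides followed miR-26a-5p, which holds most of their reads. Their summed level was 23361, 22033, 21390 and 20360 CPM in ETBF replicates 1 to 4, and 30373, 29257, 30128 and 28727 CPM in control replicates 1 to 4. No ETBF library reached the level of any control. The mean was 1.36-fold lower with ETBF, 21786 ± 1256 CPM against a control mean of 29621 ± 765 CPM (SD, n = 4 each). As a share of the library total this was 2.22% ± 0.114 with ETBF and 2.91% ± 0.116 in controls. The other names with the same seed, miR-1297 and miR-4465, had 0 counts in all 8 libraries. miR-1297 is 17 bases long and differs from miR-26b-5p only near its 3′ end. Whether reads that short were kept and told apart is unknown. A count of 0 allows up to 3 counts, or 0.447 to 1.12 CPM depending on the library, a limit that covers counting error only.

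The passenger strand of the CTDSP2 locus, miR-26a-2-3p, rose, while the guide that this locus shares with the CTDSPL locus fell. The passenger was read 54, 44, 50 and 23 times in ETBF replicates 1 to 4 and 25, 33, 29 and 49 times in control replicates 1 to 4. Scaled for depth, these were 11.6, 10.3, 12.8 and 8.61 CPM with ETBF and 4.97, 5.81, 5.51 and 7.31 CPM in controls. The lowest ETBF library was above the highest control by a narrow margin, 8.61 against 7.31 CPM. The mean went from 5.90 ± 1.00 to 10.8 ± 1.81 CPM (SD, n = 4 each), 1.84-fold, a log2 fold change of 0.88 (SE 0.19). The arm fell below the filter and was not tested when the minimum count was raised to 50.

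The passenger of the CTDSPL locus, miR-26a-1-3p, was the rarest arm. ETBF replicates 1 to 4 had 14, 6, 10 and 18 reads of it and control replicates 1 to 4 had 11, 8, 7 and 7, or 3.01, 1.41, 2.57 and 6.74 against 2.19, 1.41, 1.33 and 1.04 CPM. ETBF replicate 4, the shallowest library, stood highest, and ETBF replicate 2 was level with the controls. The means were 3.43 ± 2.30 and 1.49 ± 0.489 CPM (SD, n = 4 each), a log2 fold change of 1.10 (SE 0.44) that was not called. Without ETBF replicate 4 it was 0.66, and without ETBF replicate 2 it was 1.36 and was called.

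The passenger of the CTDSP1 locus, miR-26b-3p, was likewise mixed between the groups. ETBF replicates 1 to 4 had 20, 12, 21 and 16 reads of it and control replicates 1 to 4 had 31, 29, 40 and 22. These were 4.30, 2.82, 5.39 and 5.99 CPM with ETBF and 6.16, 5.11, 7.60 and 3.28 CPM in controls. The groups overlapped, with control replicate 4 below 3 of the ETBF libraries. The log2 fold change was -0.27 (SE 0.30) and was not called, and without 1 library it ran from -0.48 (without control replicate 4) to -0.11 (without ETBF replicate 2) and -0.083 (without control replicate 3).

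The ratio of guide to passenger was lower with ETBF for miR-26a. Its guide was read 1429, 1681, 1249 and 1185 times per passenger read of both loci in ETBF replicates 1 to 4. In control replicates 1 to 4 it was read 3934, 3762, 4086 and 3169 times. The groups lay far apart, with means of 1386 ± 222 and 3738 ± 402 (SD, n = 4 each), and the mean log2 ratio changed by -1.43, or 2.70-fold. Against miR-26a-2-3p alone the log2 ratio changed by -1.37, again without overlap, and against miR-26a-1-3p alone by -1.50, with overlap. For miR-26b the guide was read 576, 812, 399 and 364 times per passenger read with ETBF and 359, 411, 285 and 689 times in controls. These values overlapped, and the change in log2 ratio was 0.29 with a pooled SD of 0.53. It was 0.071 without ETBF replicate 2, 0.11 without control replicate 3, 0.45 without ETBF replicate 4 and 0.53 without control replicate 4, so its size rests on single libraries.

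Lower ratios of major to minor arm were common among other hairpins too. Of 117 other hairpins whose arms carry no locus number and were both tested, 75 had a lower ratio of major to minor arm with ETBF, and the median change in log2 ratio was -0.21 (quartiles -0.52 and 0.13). The ratio of miR-26a was lowered more than that of all but 2 of the 117, miR-222 (-2.32) and miR-135b (-1.70), which are named here after their values were seen. This rank takes both miR-26a passengers together. Against miR-26a-2-3p alone, at -1.367, miR-21 (-1.423) and miR-181b (-1.375) were also lower. Close above it lay miR-27a (-1.362), miR-195 (-1.343), miR-152 (-1.323) and miR-25 (-1.31), likewise named after their values were seen. The change of miR-26b, with the uncertainty just given, was above 97 of the 117. The 117 leave out most guides that, like miR-26a-5p, come from several loci and have passengers with locus numbers. Of this kind, let-7a, miR-181a and miR-550a are also among the 117, through arms without a locus number. For 14 such guides, taken up after the data had been seen, the ratio of guide to passengers was lower with ETBF in 12, with a median change of -0.63. In 12 of the 14 the guide was the more abundant strand, and some had 1 passenger in the ratio where miR-26a had 2. The change was larger than that of miR-26a in 3 of the 14, hsa-miR-128-3p (-2.1), hsa-miR-125b-5p (-1.59) and hsa-miR-92a-3p (-1.53), also named after their values were seen. Each of these had 1 passenger in the ratio. The minor arms had a median log2 fold change of 0.16 and the major arms one of -0.01, 33 minor arms were called higher (28.2% of the 117) and 11 lower (9.40%), beside 19.8% and 14.6% of all 480 tested and 15.8% and 5.00% of the 240 tested at 1 to 20 CPM. The log2 fold change was above that of miR-26a-2-3p in 9 minor arms of the 117, a count that leaves out passengers with locus numbers. Of those left out, for example, miR-16-1-3p (2.17), miR-128-1-5p (1.67), miR-92a-1-5p (1.56), miR-125b-1-3p (1.28) and let-7a-2-3p (1.04) lay above it. Others lay below it, such as miR-19b-1-5p (0.79), miR-29b-2-5p (0.67), miR-30c-1-3p (0.51) and miR-24-2-5p (-0.02).

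**Figure D3:**
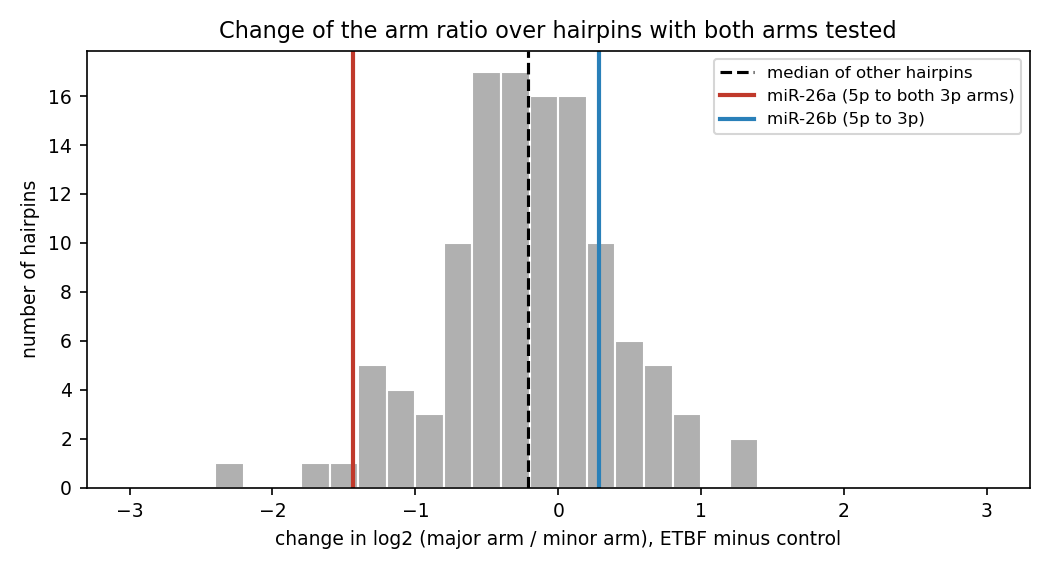
Histogram of the change in log2 ratio of major to minor arm, ETBF minus control (horizontal axis), over the 117 hairpins without locus numbers (vertical axis, number of hairpins), with lines for their median of -0.21, for miR-26a at -1.43 and for miR-26b at 0.29. miR-26a lies in the left tail and miR-26b to the right of the median.

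The passenger arms give the only reads that tell the miR-26a loci apart, since the guide is the same. Of the passenger reads of both loci, miR-26a-1-3p took 48 of 219 with ETBF, 21.9% (95% exact binomial interval 16.6 to 28.0), and 33 of 169 in controls, 19.5% (13.8 to 26.3). These intervals pool the reads of 4 libraries and leave out the spread between them. That spread was an SD of 14.2 percentage points with ETBF and 7.47 in controls. By library the share was 20.6%, 12.0%, 16.7% and 43.9% with ETBF and 30.6%, 19.5%, 19.4% and 12.5% in controls. ETBF replicate 4, with 18 of 41 reads, stood above the rest, and the ranges of the groups overlapped with or without it. The mean share was 2.79 percentage points higher with ETBF, and without ETBF replicate 4 it was lower, at -4.08 points. A change in the balance of the loci was not detectable at this depth and with this spread between libraries.

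Reads of the arms can be set side by side without a correction for length, since each is 21 or 22 bases long. The order is one of reads, since how evenly the sequences were captured was not measured. How reads of miR-26a-5p, which lies on 2 hairpins, were placed is also unknown. Over the 8 libraries the order of mean CPM was miR-26a-5p (23476), miR-26b-5p (2228), miR-26a-2-3p (8.37), miR-26b-3p (5.08) and miR-26a-1-3p (2.46). For each of the 4 pairs of neighbours in this order, the log2 CPM difference within libraries was tested against 0 with sign flips (exact permutation, two-sided, adjusted over the 4 pairs). The order came from these same 8 libraries, ETBF and control pooled. Each test therefore asks only how steadily neighbours stood apart over them. miR-26a-5p was above miR-26b-5p in 8 of 8 libraries, by 3.38 ± 0.299 on the log2 scale (SD, n = 8, exact permutation p = 0.00781, the smallest 8 libraries can give, adjusted p = 0.0156). miR-26b-5p was above miR-26a-2-3p in 8 of 8, by 8.06 ± 0.463 (SD, n = 8, exact permutation p = 0.00781, adjusted p = 0.0156). The mean difference was 3.10 with ETBF and 3.65 in controls for the first pair, and 7.67 and 8.44 for the second. Each SD over 8 libraries, here and below, thus includes the difference between the groups. The guides thus stood far above the passengers in either condition.

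Among the passengers the order was less firm. miR-26a-2-3p was above miR-26b-3p in 6 of 8 libraries, by 0.66 ± 0.796 (SD, n = 8, exact permutation p = 0.0703, adjusted p = 0.0703), which held in 4 of 4 ETBF libraries and 2 of 4 controls. Without control replicate 1 or control replicate 3 this difference passed, at 0.80 and 0.82 (adjusted p = 0.0469 each, exact permutation). miR-26b-3p was above miR-26a-1-3p in 7 of 8 libraries, by 1.07 ± 0.722 (SD, n = 8, exact permutation p = 0.0156, adjusted p = 0.0208), the exception being 1 ETBF library. The mean of this difference was 0.52 with ETBF and 1.62 in controls. All 3 passengers together made up 0.0872% ± 0.0172 of miR-26 reads with ETBF against 0.0436% ± 0.00320 for controls (SD, n = 4 each).

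**Figure D4:**
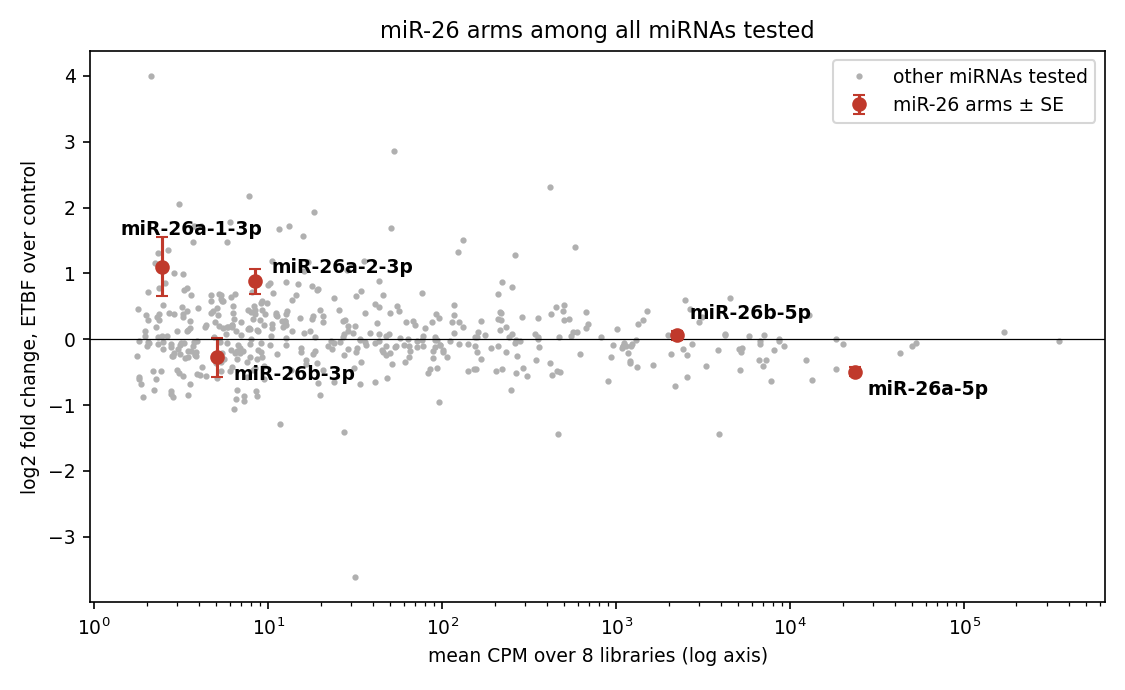
Log2 fold change of ETBF over control (vertical axis) against mean CPM over the 8 libraries (horizontal axis, log scale) for the 480 tested miRNAs, the 5 miR-26 arms in red with SE bars and the others in grey. The guides sit at 2228 and 23476 CPM and the passengers below 10 CPM, where the SE reaches 0.44.

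The miRNAs whose profiles over the 8 libraries were most like those of the guides differed for each guide. Likeness was measured as the root mean square difference of log2 CPM after centring each miRNA on its own mean, among 143 other miRNAs at 100 CPM or more. Nearest to miR-26a-5p were miR-139-5p (difference 0.05), miR-128-3p (0.07) and miR-375 (0.07), against a median of 0.26 over the 143. Over 8 libraries of 2 groups, a near profile largely means a like difference between the groups, so the fold changes that follow come from the choice itself. They were -0.49 (SE 0.08), -0.47 (SE 0.08) and -0.56 (SE 0.07). miR-139-5p, from an intron of PDE2A, went from 238 ± 14.0 to 170 ± 5.77 CPM, miR-128-3p, best known from brain, from 5966 ± 327 to 4296 ± 417 CPM, and miR-375, known from pancreatic islets, from 368 ± 16.4 to 249 ± 5.02 CPM (SD, n = 4 each). Nearest to miR-26b-5p were miR-196a-5p from the HOX loci (0.04), miR-92b-3p (0.05) and miR-29a-3p (0.06), with log2 fold changes of 0.04, 0.05 and 0.07, none of them called by edgeR here or in 15 alternative fits. By the same measure, which mostly restates their unlike fold changes, the guides themselves were 0.28 apart, and 77 of the 143 were nearer to miR-26a-5p than miR-26b-5p was.

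Further lists place the family beside miRNAs with related reported roles, chosen with earlier results of these data known. Of 21 miRNAs reported, like miR-26, as repressed by MYC, 20 were tested, 5 were higher (25%, beside 19.8% of all 480), 5 lower (25%, beside 14.6%) and 10 not called. Their median log2 fold change of 0.01, beside 0.01 over all 480, is that of members with changes in both directions. The number lower was 3 with total-count scaling and without ETBF replicate 3, ETBF replicate 4 or control replicate 3. Its most abundant members, let-7f-5p and let-7a-5p, were at -0.11 (SE 0.06) and -0.21 (SE 0.06).

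Of 4 miRNAs reported to repress EZH2, a histone methyltransferase that miR-26a also targets, 1 had enough counts, miR-101-3p, which averaged 5315 ± 675 CPM in controls and 4785 ± 117 CPM in ETBF libraries (SD, n = 4 each; log2 fold change -0.15, SE 0.08), not called in the reported fit and called lower with upper-quartile scaling (-0.23). The target mRNAs were not measured.

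**Figure D5:**
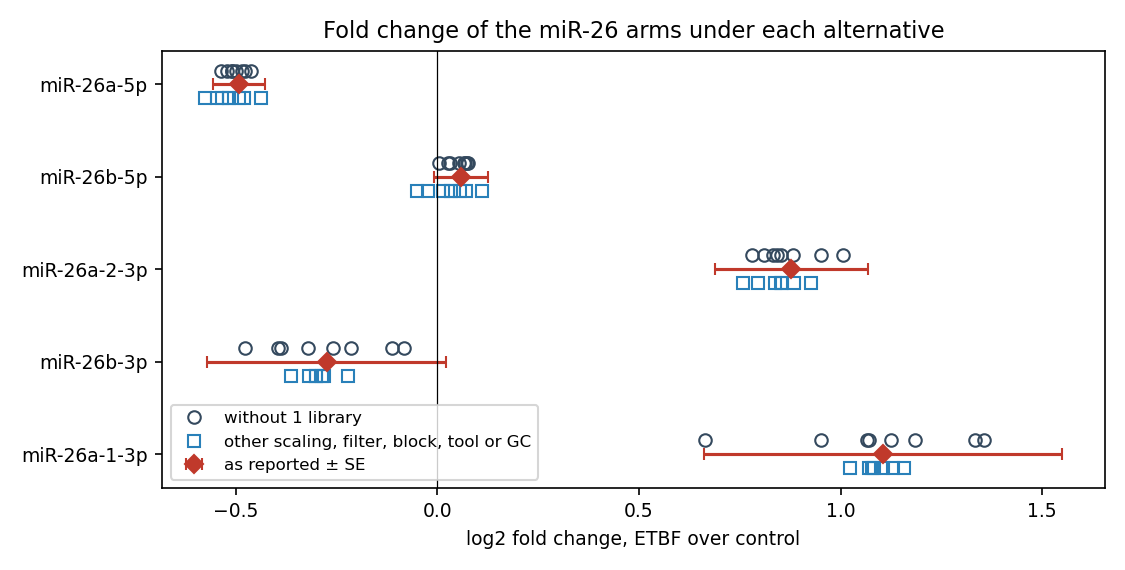
Log2 fold change of each miR-26 arm (horizontal axis) as reported with its SE, without each library in turn, and under the other alternatives (scaling, filter, replicate block, DESeq2, GC trend). miR-26a-5p stays between -0.58 and -0.44 and miR-26a-2-3p between 0.76 and 1.01, while miR-26b-5p lies on both sides of 0.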

How the data were processed

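Small RNA of 8 libraries was counted by the authors, and the deposited files give raw read counts per mature miRNA name, unnormalised, 1 file per library. Trimmomatic, FastQC and featureCounts and the build GRCh37.p5 are named per the submitters' processing notes. The sources used here do not give versions, the aligner, the miRNA release, strand or the handling of reads with several positions. miR-26a-5p lies on 2 hairpins. In 11 of 42 tested names on 2 or more hairpins, every count was a multiple of 1 whole number of 2 or more. This was not so for miR-26a-5p, whose count was odd in 6 of 8 libraries; how its reads were placed is unknown, and its level relative to miR-26b-5p depends on that.

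Groups came from the sample titles. Counts were fitted over all names with edgeR 4.0.16 in R 4.3.3 (quasi-likelihood F test, TMM, filterByExpr at a minimum count of 10, Benjamini-Hochberg, threshold 0.05), and the script was tested on simulated data. The kept miRNAs held over 99.9% of each library. The SE is the log2 fold change over the square root of F. Log2 CPM used a prior count of 2 and log2 ratios of counts added 0.5. Depth ran from 2591655 to 6522542 counts. The labels name no molecular identifiers, so reads may not be independent molecules, and intervals cover counting error only. Within groups, no libraries agreed within sampling noise, with chi-square values of 22.5 to 139 per degree of freedom.

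Members and lists were chosen with earlier results of these data known. Named are the 5 arms, names with the guide seed, the 3 nearest profiles per guide and the 2 most abundant tested members per list. A further list is not reported here. Alternatives were RLE, total-count and upper-quartile scaling, other filters, DESeq2 1.42.0, a replicate block, leaving out each library, other pseudocounts and a GC trend. RefSeq sequences matched 417 of 480 tested names (86.9%).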

Additional observations from a re-analysis of the deposited data

Results flagged for a closer look

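In 1 of 22 groups of 4 values looked at, a library lay far from the others. The log2 ratio of miR-26a-5p to miR-26b-5p was 3.55 in control replicate 4, against 3.67, 3.70 and 3.69 in the other controls. Chance flags about 1 in 20 groups. The value is still above those of all ETBF libraries, the highest of which is 3.16.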

How the results depend on the processing

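The count of called miRNAs stayed between 143 and 168 in 15 alternative fits, against 165. miR-26a-5p was called in all 15. miR-26a-2-3p was called in the 14 that tested it; the minimum count of 50 left out all 3 passengers. With upper-quartile scaling miR-26a-5p was at -0.58 and miR-26b-5p at -0.024, and after removal of the GC trend, an alternative chosen after seeing the data, miR-26b-5p was at -0.051. Upper-quartile scaling moved the median of all tested miRNAs from 0.01 to -0.07. The cause was not tested.

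With the replicate block, miR-26a-5p was at -0.49 and miR-26a-2-3p at 0.88, and 159 miRNAs were called. Same-numbered libraries did not deviate together (correlations from -0.06 to 0.06), and 0 of 4 ETBF libraries correlated best with its own number. No pairing by number was thus detected, and the labels do not say whether same-numbered libraries were handled together.

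For the order of levels, the 4 controls alone gave 3.65, 8.44 and 1.62 for the 3 comparisons that passed, with an adjusted p = 0.167 for each in the exact permutation test, where p = 0.13 is the smallest that 4 libraries can give. The difference of miR-26a-2-3p from miR-26b-3p ran from 0.51 to 0.82 without 1 library. Ratios of counts kept their sign without any 1 library, except the share of miR-26a-1-3p (-4.08 to 6.55 percentage points). Depth limits the passengers, with as few as 6 counts in a library.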
